A study of Mus musculus with 3 samples.

Results

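CC chemokines are small secreted proteins with a pair of adjacent cysteines near the N terminus. They attract leukocytes by binding G protein-coupled receptors of the CCR family, and most ligands share a receptor with others. In bone and marrow, ligands of CCR2 draw monocytes out of the marrow into blood and tissue, and ligands of CCR1 and CCR2 also act on monocyte precursors of osteoclasts, the cells that resorb bone. Transcription of many of these genes is switched on by NF-kB and interferon regulatory factors after cytokine or microbial signals.

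The levels of 10 CC chemokine genes, Ccl2, Ccl3, Ccl4, Ccl5, Ccl7, Ccl8, Ccl9, Ccl11, Ccl17 and Ccl20, were read from every probe that the platform annotation pairs with 1 of these symbols. They were covered by 14 of the 45281 probes on the array, and were 10 of 19057 named genes. Of them, 6 had 1 probe and 4 had 2 probes. The cells were LLC/luc, Lewis lung carcinoma cells of the C57BL/6 strain that carry luciferase. The starting line, LLC/luc P (P cells), had not been through bone. LLC/luc BM 1st cells, the first round of in vivo selection, were grown out of tibial lesions of C57BL/6 males injected with P cells through the heart. LLC/luc BM 2nd cells, the second round, came in the same way from a mouse given BM 1st cells. All 3 carry luciferase, and DMEM with serum is the culture medium that the labels give for them.

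Each cell line was hybridised to 1 Illumina mouse bead array, so values have no replicate, no test was possible, and precision is limited by the number of arrays. Each sub-line is also 1 culture, and no step to remove host marrow cells from it is described in the sources used here. The deposited values are linear intensities that had been quantile normalized and from which no background had been subtracted, so ratios of dim probes are smaller than the change in RNA. Background was set from 1506 probes of olfactory and vomeronasal receptors, as the 95th percentile within each array, at 109 in P, 110 in BM 1st and 107 in BM 2nd. The log2 ratios of these receptor probes between any 2 arrays lay between -0.51 and 0.48. A gene was compared between 2 cell lines when it lay above background in at least 1 of them, and was called higher or lower past a log2 ratio of 1 or -1, a 2-fold difference. Of the markers of lung carcinoma as an epithelial tumour, Krt8 and Krt18 were above background in all 3 cell lines, Cdh1 was near background, and Epcam and Krt19 were not above background in any.

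Ccl7 and Ccl2 were the 2 CC chemokine genes with higher intensity in both osteotropic sub-lines, and Ccl9 was higher in BM 1st cells alone by the same threshold. The other 7 genes were past the threshold in no comparison. Between BM 1st and P cells, 7 of the 10 genes could be compared, and 3 of them were higher and 0 lower, while 2.04% of all genes compared were higher and 1.79% lower. Between BM 2nd and P cells, 6 could be compared, and 2 were higher and 0 lower, against 1.83% and 1.53% of all genes. Between BM 2nd and BM 1st cells, 7 could be compared, and 0 were higher and 1 was lower, against 3.01% and 1.78% of all genes. The paper already lists Ccl7 and Ccl2 among the genes upregulated in BM 2nd cells on these same arrays. The 10 genes were chosen with such results known, so the counts are no independent evidence. The genes that entered each comparison did so in part because they were bright in 1 of the cell lines. Over all 10 genes without the background filter, the median log2 ratio was 0.35 for BM 1st to P cells, 0.13 for BM 2nd to P cells and -0.14 for BM 2nd to BM 1st cells, where the medians over all 19057 genes lay within 0.01 of 0.

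**Figure D1:**
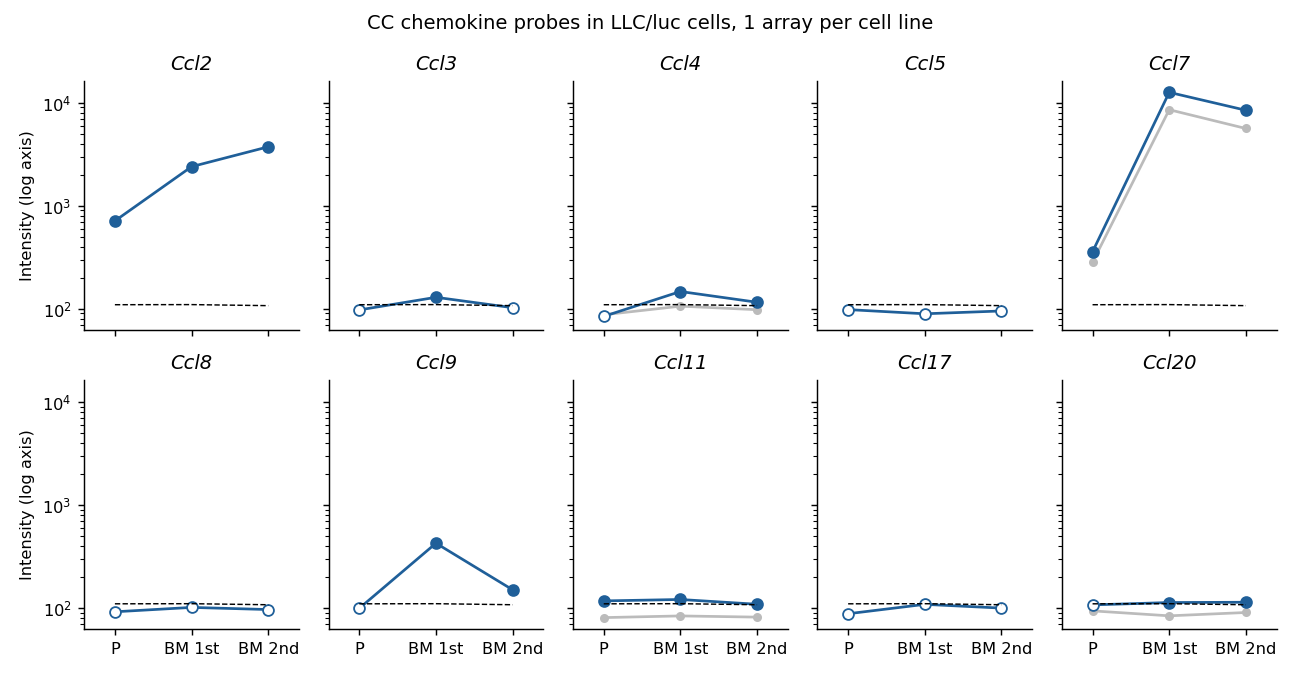
Intensity (vertical log axis) of the 10 CC chemokine genes in LLC/luc P (P), BM 1st and BM 2nd cells, with 1 array per line. Blue points are the probe read for the gene, filled where it is above background, grey points are the other probe where there is one, and the dashed line is the background of each array. Ccl2 and Ccl7 stand above background in all 3 cell lines, Ccl9 peaks in BM 1st cells at 424, and the others stay close to the dashed line.

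The monocyte chemoattractants showed the widest range. Ccl7 encodes monocyte chemoattractant protein 3, which attracts monocytes through CCR2 and also acts on other leukocytes through CCR1 and CCR3. Its brighter probe had an intensity of 358 in P, 12628 in BM 1st and 8458 in BM 2nd, and its other probe had 283, 8567 and 5627 in the same order. Both probes were thus lowest in P cells and highest in BM 1st cells. The log2 ratio of BM 1st to P cells was 5.14 on the brighter probe, a 35.3-fold difference, and 4.92 on the other. It was the largest log2 ratio in that comparison, rank 1 of 10380 genes. The log2 ratio of BM 2nd to P cells was 4.56 and 4.31 on the 2 probes, a 23.6-fold difference on the brighter one and rank 2 of 10580 genes. Between BM 2nd and BM 1st cells the ratios were -0.58 and -0.61, short of the threshold. Each lay below the lowest receptor probe, but those probes are dim. Among all genes compared, the brighter Ccl7 probe was rank 776 from the lowest of 10564.

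Ccl2 encodes monocyte chemoattractant protein 1, the main CCR2 ligand that recruits inflammatory monocytes. It was read by 1 probe, with intensities of 713 in P, 2397 in BM 1st and 3737 in BM 2nd. Unlike Ccl7, it was brightest in BM 2nd cells. The difference between BM 1st and P cells was 3.36-fold, a log2 ratio of 1.75 (rank 60), and that between BM 2nd and P cells was 5.24-fold, a log2 ratio of 2.39 (rank 30). BM 2nd cells were 1.56-fold above BM 1st cells, a log2 ratio of 0.64, which did not pass the threshold. Ccl2 and Ccl7 therefore differed in the direction of the second step, and in neither gene was that step past a log2 ratio of 1 or -1.

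Ccl8 encodes another member of the monocyte chemoattractant group, which in mice binds CCR8 on T cells. Its probe gave 91.6 in P, 101 in BM 1st and 96.3 in BM 2nd and was not above background on any array. Ccl11 encodes eotaxin, which attracts eosinophils through CCR3. Its brighter probe gave 117, 121 and 108 in the same order, just above background on each array, with a log2 ratio of 0.05 for BM 1st and -0.11 for BM 2nd cells to P cells, and its other probe was not above background. A change in either gene was not detectable at these intensities.

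Ccl9 encodes macrophage inflammatory protein 1 gamma, a CCR1 ligand that in mice attracts dendritic cells and osteoclast precursors. Its single probe gave 98.99 in P cells, below background, 424 in BM 1st and 150 in BM 2nd. Ccl9 was the only one of the 10 genes whose BM 2nd intensity fell below its BM 1st intensity by more than the threshold. With the dim value replaced by the background of its array, the level in BM 1st cells was at least 3.88-fold that in P cells, and the level in BM 2nd cells at least 1.37-fold. The measured log2 ratios were 2.10 and 0.60. Between BM 2nd and BM 1st cells, both above background, the log2 ratio was -1.50, rank 43 from the lowest of 10564 genes.

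Ccl3 and Ccl4 encode macrophage inflammatory proteins 1 alpha and 1 beta, which attract macrophages and T cells, Ccl3 in part through CCR1. Ccl3 gave 97.5 in P, 129 in BM 1st and 102 in BM 2nd, and was above background in BM 1st cells only. Its bound was 1.18-fold in BM 1st over P cells, and the measured log2 ratio of 0.41 lay within the range of the receptor probes. The brighter Ccl4 probe gave 84.4, 147 and 116 in the same order of cell lines, not above background in P cells, with a log2 ratio of 0.80 and a bound of 1.34-fold for BM 1st over P cells. The other Ccl4 probe gave 87.4, 106 and 97.9 and was not above background on any array. Like Ccl9, the probes of Ccl3 and Ccl4 were brightest in BM 1st cells, with neither past the threshold.

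The ligands of lymphocyte receptors stayed at or near background. Ccl5, which attracts T cells and is also known as RANTES, gave 98.2 in P, 89.4 in BM 1st and 95.2 in BM 2nd, not above background on any array. Ccl17, a CCR4 ligand that attracts T helper 2 and regulatory T cells, gave 87.7, 108 and 99.5, also not above background. Ccl20, the CCR6 ligand that attracts T helper 17 cells, B cells and immature dendritic cells, gave 107, 113 and 113 on its brighter probe, above background in both sub-lines by a few units, and its other probe was below background throughout. The log2 ratio of Ccl20 was 0.08 for BM 1st and 0.09 for BM 2nd cells to P cells.

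**Figure D2:**
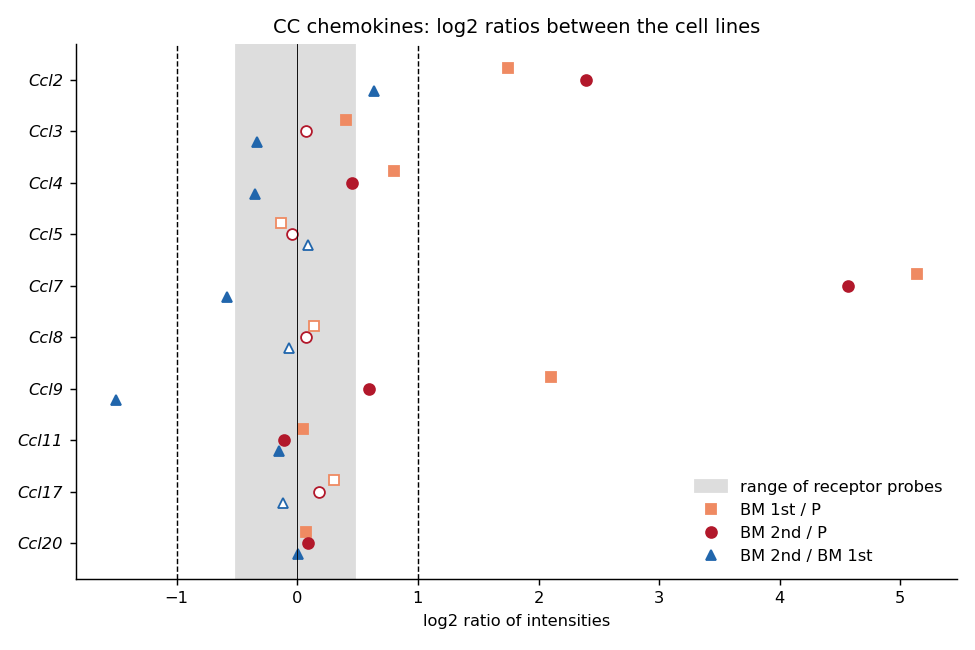
Log2 ratio of intensities (horizontal axis) of the 10 CC chemokine genes for BM 1st to P, BM 2nd to P and BM 2nd to BM 1st cells, 1 array per cell line. Open symbols mark genes below background in both cell lines, the grey band spans the receptor probes, and dashed lines mark 1 and -1. Ccl7 lies farthest to the right at 5.14, and Ccl9 is the only gene to the left of -1, at -1.50.

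The 3 genes past the threshold did not share one pattern. In the plane of the 2 ratios to P cells, the genes closest to Ccl2 among 10938 genes above background on at least 1 array were Olfml2b, BC028528 and Synpo, at distances of 0.11, 0.19 and 0.28 in log2 units. Those closest to Ccl9 were Mfap3l, Dusp4 and Prl2c2, at 0.14, 0.16 and 0.16. Ccl7 had no near neighbour. It ranked 1 and 2 in these 2 ratios, so a large distance to other genes follows in part from its rank. The closest gene, Arhgdib, was 1.33 away, followed by Ugt1a10 at 1.64, the lysozyme gene Lyz1 at 1.85, Lum at 2.04 and Tnfaip3 at 2.10. These distances are from the brightest probe. Arhgdib, Ugt1a10 and Lyz1 each had another probe that was not above background on any array. Lum differed from Ccl7 in the second step, with a log2 BM 2nd to BM 1st ratio of 1.82 against -0.58. The likeness is over 3 arrays and both ratios share the P array.

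**Figure D3:**
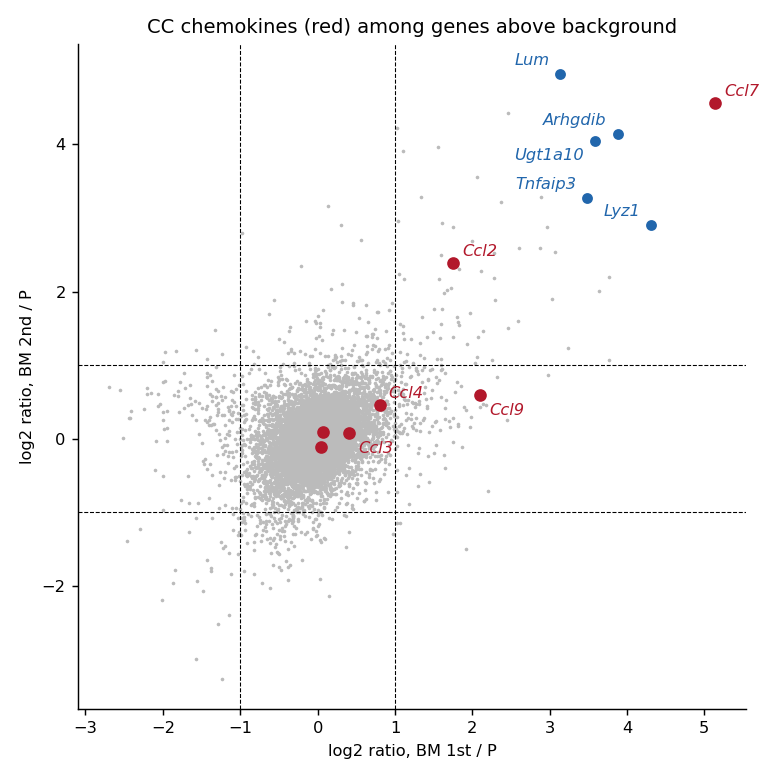
Log2 ratio of BM 1st to P (horizontal axis) and of BM 2nd to P (vertical axis) for 10938 genes above background on at least 1 array (grey), with CC chemokine genes in red and the 5 genes closest to Ccl7 in blue; dashed lines mark 1 and -1. Ccl7 stands apart at the upper right, Ccl2 lies past both upper lines, and Ccl9 lies past the BM 1st line only.

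Most of the 10 genes lie in a pair of clusters on mouse chromosome 11, and the differences were uneven within each. In the first cluster the RefSeq order is Ccl2, Ccl7, Ccl11, Ccl12, Ccl8 and Ccl1. Ccl2 and Ccl7, next to each other at one end, were higher in both sub-lines, while Ccl11 was near background and Ccl12, Ccl8 and Ccl1 were not above it on any array. The gene beyond Ccl2, 1700071K01Rik, had log2 ratios of -0.50 and -0.65 for BM 1st and BM 2nd cells to P cells. In the other cluster the order is Ccl5, Ccl9, Ccl6, Ccl3 and Ccl4. From Ccl9 to Ccl4 all 4 genes were brightest in BM 1st cells, whereas Ccl5 at the edge was at background. Ccl6, a CCR1 ligand made by macrophages, gave 98.6 in P, 143 in BM 1st and 104 in BM 2nd, a bound of 1.31-fold for BM 1st over P cells. Wfdc17, the gene after Ccl4, gave 89.7, 199 and 115 in the same order, with a log2 ratio of 1.15 for BM 1st to P cells from a P value below background. The genes that flank the clusters were looked up after the values were seen. Neighbouring ligands are similar in sequence, and cross-hybridisation of their probes was not tested.

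**Figure D4:**
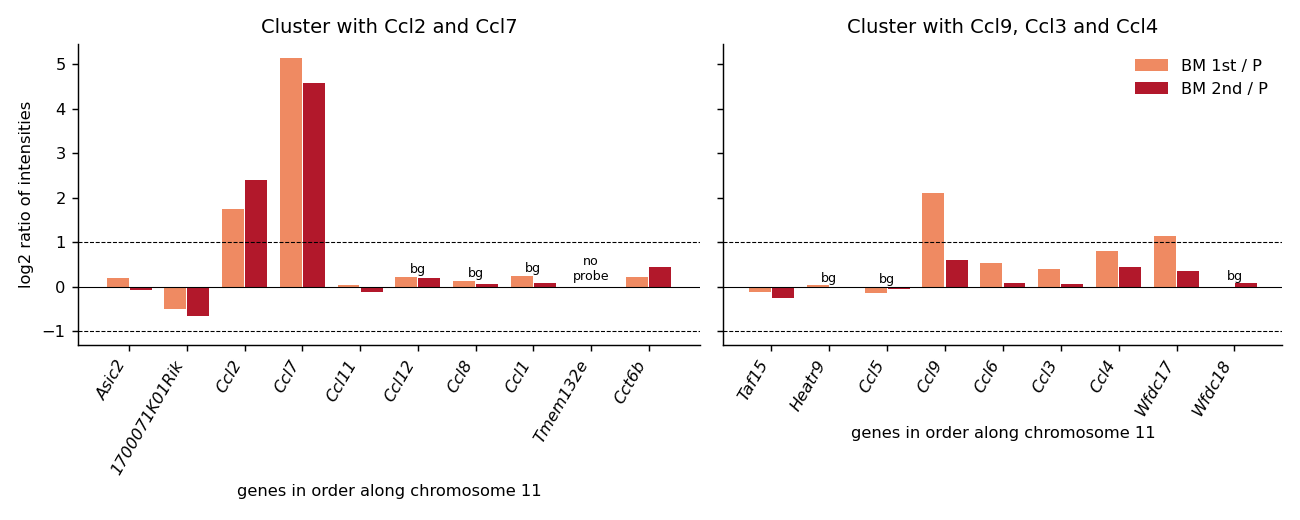
Log2 ratio of BM 1st to P and of BM 2nd to P (vertical axis) for genes in their order along chromosome 11 (horizontal axis, not to scale) in both CC chemokine clusters with the 2 flanking genes on each side; bg marks genes not above background on any array, and dashed lines mark 1 and -1. Bars past 1 are seen at Ccl2 and Ccl7 in both sub-lines, and at Ccl9 and Wfdc17 in BM 1st cells only.

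Promoter sequence was at hand from RefSeq (GRCm38.p6) for 5 of the 10 genes, Ccl3, Ccl8, Ccl9, Ccl17 and Ccl20. The 250 bases before each gene start were searched on both strands for TATAA, the core of the TATA box, and for the NF-kB consensus. The NF-kB consensus was found in 2 of them, Ccl9 and Ccl20, and is held by 5.001% of all promoter windows of this length. TATAA was found in all 5 and is held by 22.8% of all such windows. These counts take either strand and any position, and the only Ccl17 match was on the opposite strand. Within the last 50 bases on the gene strand, TATAA was found in Ccl3, Ccl8 and Ccl20 and is held by 4.93% of all promoters. The last 100 bases before the start are shown for Ccl9, Ccl20 and Ccl3. Ccl9 was past the threshold, and Ccl20 also holds the consensus but stayed near background. Ccl3 lies in the same cluster as Ccl9 and does not hold the consensus. Capitals mark both motifs.
Ccl9, chr11:83578637-83578736, minus strand: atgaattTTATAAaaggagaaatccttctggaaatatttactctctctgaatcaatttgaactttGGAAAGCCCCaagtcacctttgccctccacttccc
Ccl20, chr1:83116666-83116765, plus strand: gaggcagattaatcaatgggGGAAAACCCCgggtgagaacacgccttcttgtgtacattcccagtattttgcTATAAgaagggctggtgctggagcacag
Ccl3, chr11:83649379-83649478, minus strand: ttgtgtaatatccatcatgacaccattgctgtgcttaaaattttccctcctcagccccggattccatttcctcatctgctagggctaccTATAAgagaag
In Ccl9 the NF-kB match spans bases 35 to 26 before the start on the opposite strand, and the TATAA match nearest to the start lies at bases 92 to 88. Matches on both strands overlap there, which gives the run of 6 capitals. In Ccl20 the NF-kB match spans bases 80 to 71, also on the opposite strand, and TATAA bases 28 to 24. In Ccl3 the TATAA match nearest to the start lies at bases 11 to 7. The motifs did not overlap each other. A match describes the letters only, and of the 2 genes with an NF-kB match, Ccl9 was past the threshold and Ccl20 was not.

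Other CC chemokine ligands were past the threshold in no comparison. Of 14 listed, 12 had a named probe and 4 were above background on at least 1 array, Ccl6, Ccl19, Ccl25 and Ccl27a. Ccl27a, a CCR10 ligand known from skin, gave 134 in P, 181 in BM 1st and 234 in BM 2nd, with a log2 BM 2nd to P ratio of 0.80 on that probe and 0.37 on the other. Ccl25, a CCR9 ligand of thymus and gut, gave 390, 377 and 280 on its brightest probe, a log2 ratio of -0.48, and its other probes gave -0.36 and -0.05.

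The receptors of these ligands were nearly silent in all 3 cell lines. Of 11 listed CC chemokine receptors, 10 had a named probe, and 2 were above background on any array, Ccr6 at up to 125 and Ccr7 at up to 112. Ccr1 and Ccr2, receptors of Ccl9 and of Ccl2 and Ccl7, were not above background in any cell line, with Ccr2 at 96.0 in P, 95.4 in BM 1st and 91.2 in BM 2nd. Of 4 atypical or decoy receptors, most of which bind chemokines without signalling for migration, 3 were above background on at least 1 array and 0 were past the threshold. Ccrl2 gave 103 in P, 124 in BM 1st and 148 in BM 2nd, a bound of 1.36-fold in BM 2nd over P cells.

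Genes that control CC chemokine transcription and mRNA decay were often past the threshold. Of 20 listed, 18 had a named probe and 16 were compared. In BM 1st cells 6 were higher than in P cells and 1 was lower, and in BM 2nd cells 5 were higher and 0 lower, against 2.04% and 1.83% of all genes higher. These arrays had already shown several of them to differ, so the counts are no independent evidence. The genes higher in both sub-lines included feedback inhibitors of NF-kB. Nfkbia, which holds NF-kB in the cytoplasm, gave 1107 in P, 8103 in BM 1st and 6687 in BM 2nd. Tnfaip3, a ubiquitin-editing inhibitor, gave 140, 1563 and 1350 in the same order. Both were highest in BM 1st cells, the order also seen for Ccl7. Their log2 ratios between BM 2nd and BM 1st cells, -0.28 and -0.21, were short of the threshold. With 1 array per cell line, an order set by such steps is not resolved.

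Nfkbiz, a nuclear cofactor of NF-kB, and Irf1, an interferon regulatory factor, were highest in BM 2nd cells, as was Ccl2. Their log2 ratios between BM 2nd and BM 1st cells, 0.69 and 0.40, were also short of the threshold. Nfkbiz gave 709 in P, 2827 in BM 1st and 4566 in BM 2nd, and Irf1 gave 1005, 7449 and 9813. Of the 5 Irf1 probes the dimmest had a log2 BM 2nd to P ratio of 0.94, and the others lay between 2.64 and 3.69. Zfp36 encodes tristetraprolin, which promotes decay of AU-rich mRNAs, among them chemokine mRNAs. It gave 955, 2415 and 9337, with a log2 ratio of 1.95 between BM 2nd and BM 1st cells. Zfp36l1, of the same family, was higher in BM 1st cells only, with a log2 ratio of 1.14.

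The NF-kB subunit genes Rela, Relb and Nfkb2 were not past the threshold, with log2 BM 2nd to P ratios of 0.07, 0.00052 and -0.53. Fos, an AP-1 subunit, was lower in BM 1st than in P cells, at 1836 against 7346, and gave 9493 in BM 2nd. The cytokines that induce CC chemokines, Tnf, Il1a, Il1b, Il6, Ifng and Ifnb1, were not above background in any cell line. Among 16 listed inducing cytokines and receptors, 9 were compared between BM 2nd and P cells and 1 was higher, against 1.83% of all genes. It was the TNF receptor gene Tnfrsf1b, with a bound of 1.95-fold. Its other 2 probes gave log2 ratios of 0.13 and 0.35. Of 14 pattern recognition receptors and adaptors with a probe, 11 were compared between BM 2nd and P cells and 1 was higher, against 1.83% of all genes. It was Nod1, with a log2 ratio of 1.14.

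**Figure D5:**
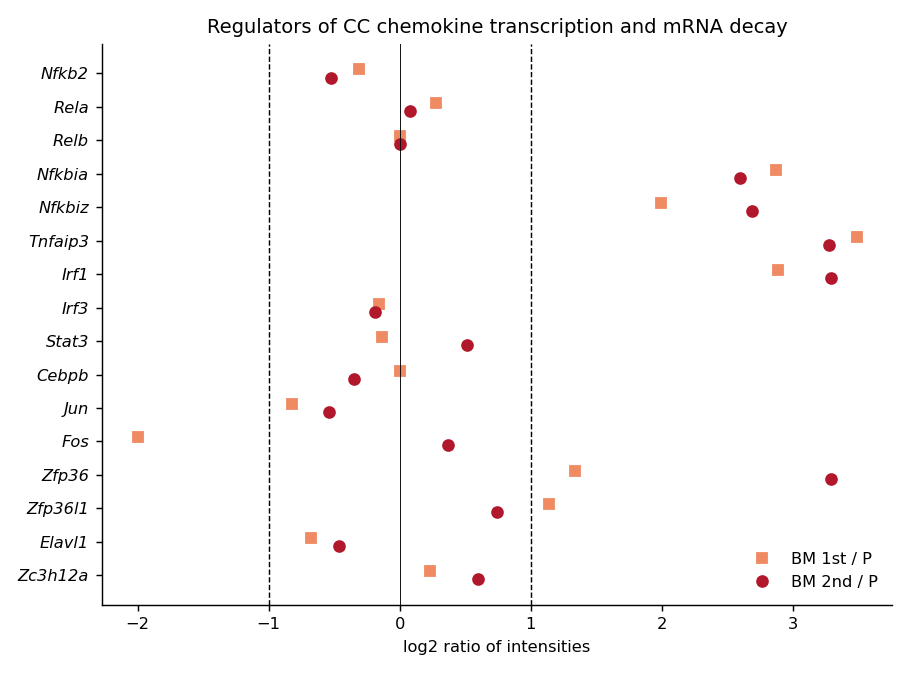
Log2 ratio of intensities (horizontal axis) of BM 1st to P and BM 2nd to P for 16 genes that control CC chemokine transcription and mRNA decay and were above background, 1 array per cell line; dashed lines mark 1 and -1. Nfkbia, Nfkbiz, Tnfaip3, Irf1 and Zfp36 lie to the right of 1 in both, and Fos lies to the left of -1 in BM 1st cells.

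Growth factors of the monocyte lineage act on the same cells as Ccl2 and Ccl7. Of 8 listed, 5 were compared between BM 1st and P cells and 1 was higher, against 2.04% of all genes. It was Il34, a ligand of the CSF1 receptor, at 275 in BM 1st against 121 in P cells. Between BM 2nd and P cells 0 of 6 were past the threshold, with Il34 just short of it at 238 in BM 2nd cells, a log2 ratio of 0.98. Vegfa, which also attracts monocytes, had a log2 ratio of -0.59 between BM 2nd and P cells, and Csf1 gave 607 in P, 714 in BM 1st and 675 in BM 2nd.

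Monocytes and macrophages themselves make Ccl9, Ccl6, Ccl3 and Ccl4. Of 13 of their markers with a probe, 3 were above background in P, 9 in BM 1st and 7 in BM 2nd, and their summed intensity was 1290, 5529 and 2708. Past the threshold were 2 of 10 compared between BM 1st and P cells and 2 of 8 between BM 2nd and P cells, all higher, against 2.04% and 1.83% of all genes. These were the lysozyme genes, with Lyz1 at 159, 3169 and 1190 and Lyz2 at 79.5, 1078 and 365 in P, BM 1st and BM 2nd. They held most of the sum in both sub-lines. These values are from the brightest probe of each, and the other Lyz1 probes were not above background on any array. Another Lyz2 probe gave 108.5, 510 and 206 in the same order, and the remaining Lyz2 probe was not above background. The other markers were not past the threshold, and Cx3cr1 was above background in P cells alone, at 112. Of 8 pan-leukocyte markers, 1, 6 and 3 were above background, with sums of 788, 1323 and 983. The sums of both lists thus had the order of Ccl9, with BM 1st highest and BM 2nd between. Single markers did not all have it. Coro1a, the leukocyte marker above background in every cell line, gave 113 in P, 133 in BM 1st and 173 in BM 2nd.

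Between BM 1st and P cells 2 of 6 leukocyte markers compared were higher, against 2.04% of all genes. Laptm5, a lysosomal membrane protein of blood cells, gave 90.1 in P, 367 in BM 1st and 184 in BM 2nd, with bounds of 3.36-fold for BM 1st and 1.68-fold for BM 2nd over P cells. Fcer1g, the signalling chain of Fc receptors, gave 95.4, 255 and 128, with a bound of 2.33-fold for BM 1st over P cells. Both had the order of Ccl9. The defining markers Itgam and Tyrobp were not above background in any cell line, Ptprc was at 111 in BM 1st cells against a background of 110, and Adgre1 was at 131. Fewer cells of a type and less RNA per cell cannot be told apart in bulk RNA, and the part of such cells in the Ccl9, Ccl3 and Ccl4 values was not tested.

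Fibroblasts and marrow stroma also make Ccl2 and Ccl7. Of 10 of their markers with a probe, 7 were above background in each cell line, with summed intensities of 3675 in P, 10793 in BM 1st and 18851 in BM 2nd. This is the order of Ccl2, whereas Ccl7 was brightest in BM 1st cells. For Ccl2 and Ccl7 the step between the sub-lines was short of the threshold. With 1 array per cell line, their order there is not resolved. Of 8 markers compared between BM 1st and P cells 4 were higher and 1 was lower, against 2.04% and 1.79% of all genes. Of 8 compared between BM 2nd and P cells 5 were higher and 0 lower, against 1.83% and 1.53% of all genes. Lum, Dcn and Dpt, which encode matrix proteins, held most of the sum in both sub-lines. Lum gave 198 in P, 1742 in BM 1st and 6133 in BM 2nd, Dcn gave 1027, 6259 and 6174, and Dpt gave 142, 418 and 2213. Of these, Dcn was nearly level between the sub-lines. The paper lists Lum, Dcn and Dpt among the genes upregulated in its osteotropic cells on the same arrays. It also reports lumican, the Lum product, in the culture supernatant of those cells, with less after Lum knockdown. The sum and the counts thus rest largely on genes already known to differ. Their order across the cell lines is no independent evidence of stromal cells.

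Pdgfra, a growth factor receptor of mesenchymal cells, was the other gene higher in both sub-lines, at 258 in P, 851 in BM 1st and 1068 in BM 2nd. Col1a1, a chain of type I collagen, was higher in BM 2nd cells, at 412, than in P cells, where it was not above background, with a bound of 3.76-fold. Fbln1 was lower in BM 1st than in P cells, at 271 against 544, and Col3a1 gave 1107 in P, 833 in BM 1st and 1946 in BM 2nd. Thy1 and Pdgfrb were not above background in any cell line, and Col1a2 was at 110 or below. The part of stromal cells in the Ccl2 and Ccl7 values was not tested.

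Among osteoblast markers 4 of 5 were above background on at least 1 array and 0 were past the threshold. Sp7, a transcription factor of the osteoblast lineage, gave 103 in P, 101 in BM 1st and 197 in BM 2nd, a bound of 1.80-fold for BM 2nd over P cells. Of the neutrophil, lymphocyte, osteoclast and endothelial markers, 1 of 6, 0 of 5, 1 of 5 and 2 of 5 were above background on any array, and 0 were past the threshold.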

How the data were processed

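Total RNA from P, BM 1st and BM 2nd cells was measured on Illumina mouse bead arrays in 1 colour, 1 array per line. The authors deposited linear intensity values for 45281 probes; GenomeStudio 2011.1 is named in the submitters' processing notes. Sorted values of the 3 arrays differ by at most 0.274 and the lowest is 60.2, so they were quantile normalized with no background subtracted; its settings are not described in the sources used here. Probes were named from the platform annotation, with symbols updated to GRCm38.p6 RefSeq: 34885 had 1 gene, 18 several (not named) and 10378 none there.

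Log2 ratios were taken in Python 3.11.15 (numpy 2.4.6, pandas 2.3.3) and drawn with matplotlib 3.10.9. The probe brightest in mean log2 intensity stood for its gene. Where only 1 of 2 arrays was above background, the bound divides the bright value by the dim one or by its array's background, whichever is higher. Counting was tested on simulated data. The genes named are the 10 CC chemokines, members of fixed lists, and the genes nearest to each chemokine past the threshold (5 for Ccl7, 3 for Ccl2 and Ccl9). Members and lists were chosen with earlier results of these data known. Alternatives varied the background level and filter, the normalization, subtraction, the probe and the threshold.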

Additional observations from a re-analysis of the deposited data

How the results depend on the processing

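Ccl2 and Ccl7 stayed higher in BM 2nd than in P cells, and Ccl7 in BM 1st than in P cells, under every alternative run. No ratio of a called gene changed sign. With the median receptor intensity subtracted, 5 genes were higher in BM 1st than in P cells (Ccl3 and Ccl4 in addition), 4 were higher in BM 2nd than in P cells (Ccl4 and Ccl9 in addition), and 3 were lower in BM 2nd than BM 1st cells (Ccl3, Ccl4 and Ccl9). In the added calls over P cells the P value was at the floor of 10 intensity units set after subtraction, which fixes those ratios, and 7.96% of all genes were then higher in BM 2nd than in P cells. At a threshold of 1.5-fold, 1 gene, Ccl2, was higher in BM 2nd than BM 1st cells, 3 were higher in BM 2nd than in P cells (Ccl9 in addition) and 4 in BM 1st than in P cells (Ccl4 in addition). At 4-fold, 0 genes were lower in BM 2nd than BM 1st cells, and Ccl2 was no longer past the threshold in BM 1st cells. Ccl9 was not compared between BM 1st and P cells when both had to be above background. Centring each array on its own probes above background, chosen after the data were seen, moved the BM 2nd array by -0.14 in log2 and the split of all genes between BM 2nd and P cells to 285 higher and 106 lower, in place of 194 and 162. It kept the calls of the 10 genes, while the uncalled ratio of Ccl11 became 0.03. No paired analysis was possible because there is 1 array per cell line, and for the same reason no replicate could be left out. Genes not above background, 7 of the 10 in P cells, can hide a change that the array does not show.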
